A study of Homo sapiens with 8 samples.

Results

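Collagens are the structural proteins of the extracellular matrix, and each gene with a symbol of COL, a number, A and a number encodes 1 alpha chain. All such genes with a probe set assigned to a single gene were taken, which gave 43 collagen genes among the 18417 named genes of the array. They were measured in the 786-O line, from a clear cell carcinoma of the kidney, in which VHL, needed to degrade HIF alpha subunits, is lost. Cells labelled parental or HIF2a-null received DMSO as vehicle or 2 uM PT2399, an inhibitor of HIF2a, for 24 h or 48 h. Each of these 8 combinations was measured on 1 array, so the 24 h and the 48 h pair of arrays were the only repeats of a treatment difference. Per the series text, parental and null cells were handled in independent experiments, so effects of genotype and of experiment cannot be told apart. The labels do not say how the null cells were made or from how many clones, and the protocol text of all samples mentions null cells alone.

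Alpha chains wind in sets into a triple helix, after hydroxylation in the endoplasmic reticulum by enzymes that need oxygen. Fibrillar collagens form the fibres of connective tissue, type IV collagens form the sheet of the basement membrane that underlies tubular epithelium, and type VI collagen forms beaded filaments. Fibril-associated collagens with interrupted triple helices, called FACIT collagens, sit on the surface of fibres. HIF2a and HIF1a bind DNA with ARNT at short sequences that contain ACGTG or GCGTG, and 786-O cells depend mainly on HIF2a for this response.

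EPAS1, which encodes HIF2a, had intensities of 1277 and 1010 in parental DMSO cells and 650 and 585 in null DMSO cells at 24 h and 48 h. Since the labels do not say how HIF2a was lost, these levels check the genotype only in part. Under PT2399 EPAS1 stood at 1519 and 1304 (parental) and at 682 and 722 (null). The null PT2399 array at 48 h stood apart: over all tested genes its log2 values correlated with the other null arrays at 0.78 to 0.83, against 0.94 to 0.98 among the others. Parental arrays correlated with one another at 0.95 to 0.99. The median intensity of the parental PT2399 array at 24 h was 134, where the rest of the parental arrays had 112 to 113, and that of the null arrays ran from 99.4 to 121. All 8 renal tubular markers on the array were at or above an intensity of 118. None of 8 fibroblast markers, 5 endothelial markers or 4 leukocyte markers reached it. The summed fibroblast marker intensity was 404 to 567 in parental and 286 to 384 in null arrays, and no marker was at 0.

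A gene was tested when the geometric mean of its intensities over the 8 arrays was at least 118, which is percentile 40 of all named genes. Of the 43 collagen genes 21 reached this limit and 22 did not; the latter are called dim, and no test was run on them. COL2A1 (119) and COL22A1 (122) lay just inside the limit, and COL5A1 (114) and COL13A1 (108) just outside it. By class, the tested genes were 5 of 11 fibrillar chains, 2 of 6 type IV chains, 3 of 5 type VI chains and 6 of 10 FACIT chains. COL8A1, COL7A1, the transmembrane COL23A1, the multiplexin COL18A1 and COL26A1 completed the tested genes. COL1A2, COL3A1, COL5A1 and COL5A2, which with COL1A1 make up the main fibre-forming chains of stroma, were dim. COL14A1 was at or above the limit on 6 of 8 arrays and COL8A1 on 4 of 8, so both were tested only through the arrays on which they were high. COL2A1 reached it on 3 arrays, COL9A2 and COL22A1 on 5 each, and COL20A1 and COL26A1 on 6 each. The geometric mean of COL2A1 over parental arrays was 106, and that of COL22A1 over null arrays 112. Counts in parental cells thus hold COL2A1, and counts in null cells COL22A1, at a level under the limit. Intensities of different probe sets are not comparable with each other, so genes are not ranked by level. RNA came from whole cultures, in which fewer cells of a kind and less RNA per cell cannot be told apart.

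**Figure D1:**
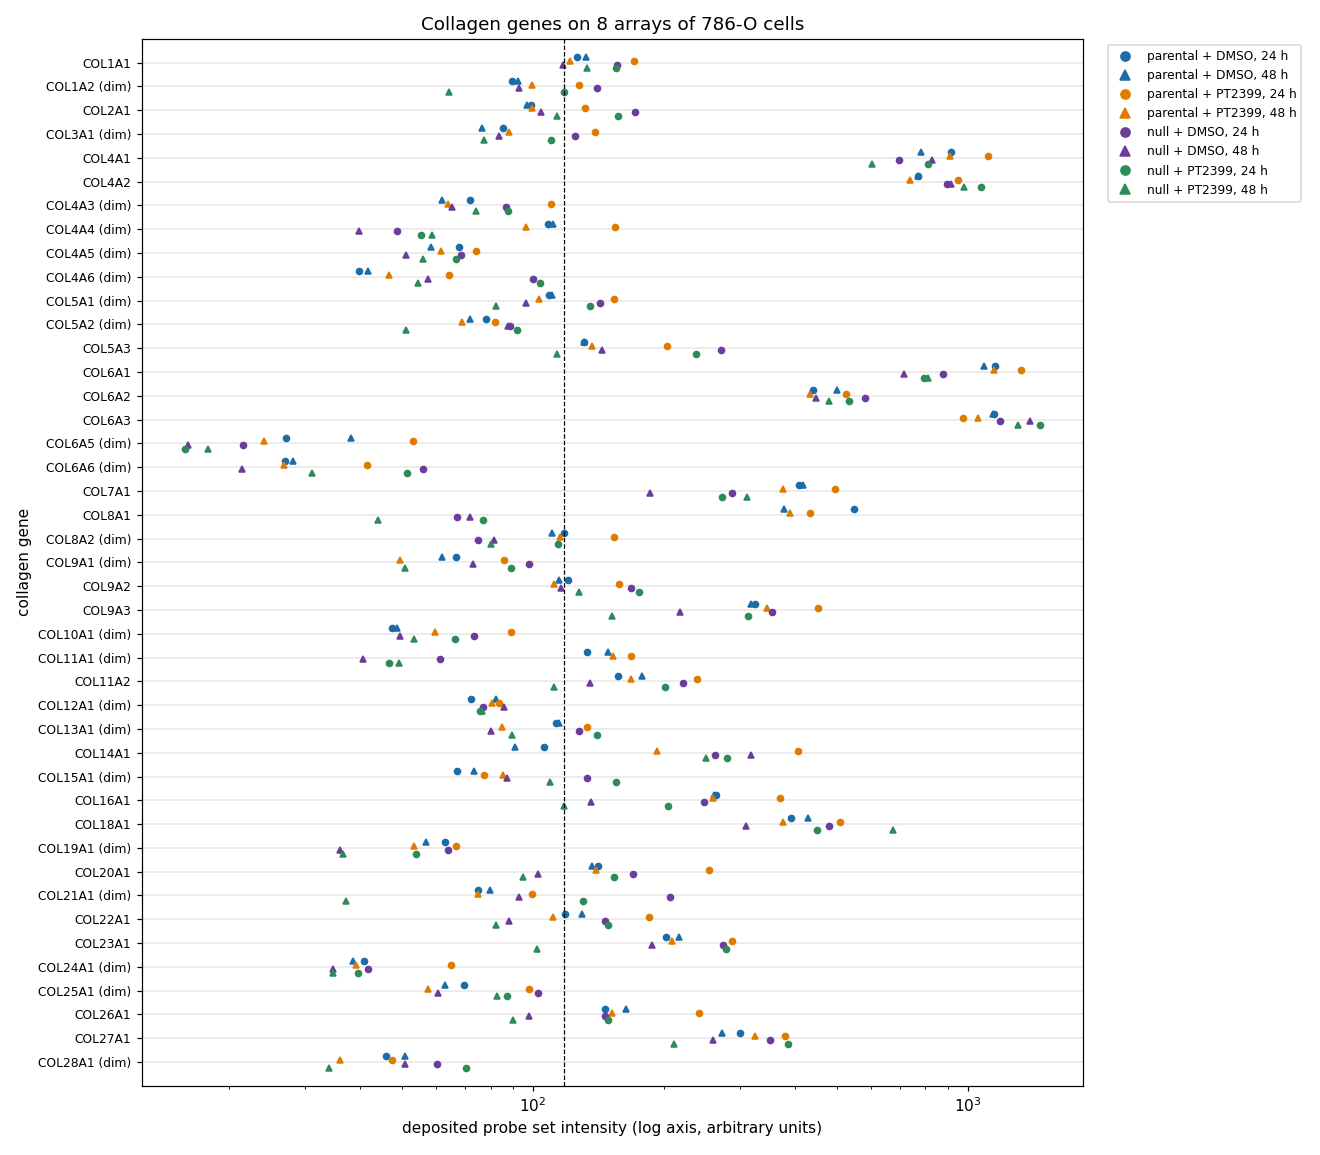
Deposited intensity (log axis) of the 43 collagen genes on each of the 8 arrays, 1 point per array; colour gives genotype and treatment, circles are 24 h and triangles 48 h, and the dashed line is the limit of 118. The 22 genes marked dim have a geometric mean to the left of the line; COL8A1 is right of it on the 4 parental arrays and left of it on the 4 null arrays.

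The first comparison asked how collagen transcripts differed with HIF2a inhibited in parental cells. COL14A1, a FACIT collagen that binds the surface of type I fibres, had the largest difference of the 21 tested. Its intensity was 106 at 24 h and 91.2 at 48 h in DMSO, and 406 and 193 in PT2399. Both PT2399 arrays lay above both DMSO arrays, which were under the limit. The log2 difference was 1.94 at 24 h and 1.08 at 48 h, with a mean of 1.51 (SE 0.30). Limma gave an unadjusted p of 0.0027 and, after Benjamini-Hochberg adjustment over 11050 genes, an adjusted p of 0.99996, so it did not pass the test. With limma array weights the adjusted p was 0.012, in a fit that called 76 of the 11050 tested genes. It was 0.15 when parental arrays were fitted alone. Limma called no gene in this comparison, 0% of those tested; 130 genes had an unadjusted p under 0.05. COL14A1 was the only collagen gene at least 2-fold higher at both times, a rule met by 0.0452% of all tested genes. It was also the only one with an unadjusted p under 0.05 in the higher direction, which 0.48% of tested genes had, and none had one in the lower direction (0.697%).

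**Figure D2:**
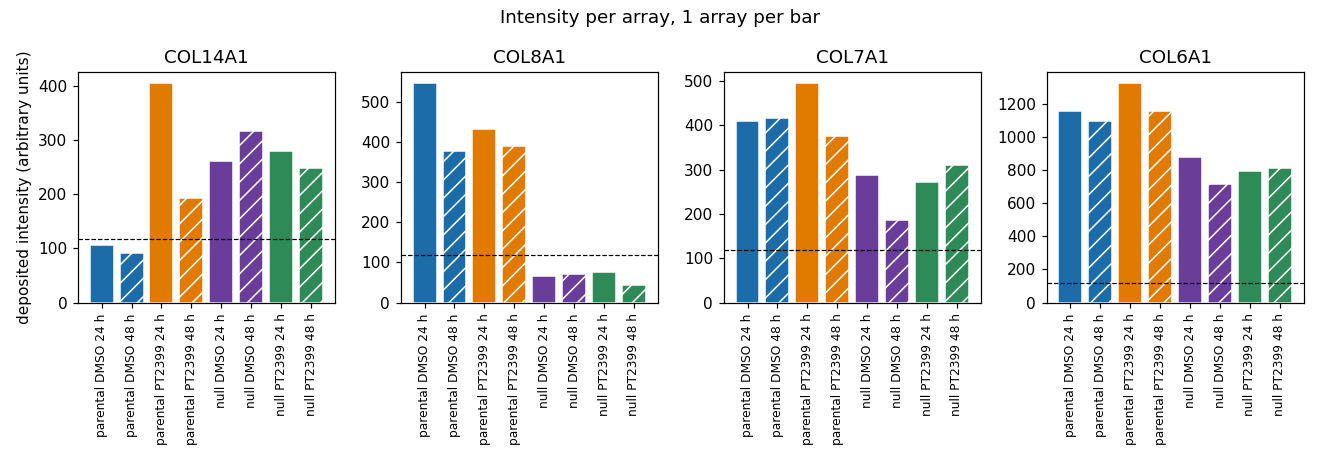
Deposited intensity of COL14A1, COL8A1, COL7A1 and COL6A1 on each array, 1 bar per array, plain for 24 h and hatched for 48 h; the dashed line is the limit of 118. COL14A1 was 106 and 91.2 in parental DMSO cells and 193 to 406 elsewhere, while COL8A1 was 377 to 548 in parental and 44.1 to 77.0 in null cells.

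The other 20 tested collagen genes had mean log2 differences from -0.17 to 0.44 in parental cells, and none passed the test. Of the 21, 8 were higher at both times (COL2A1, COL4A1, COL5A3, COL6A1, COL9A3, COL14A1, COL20A1 and COL27A1), against 30.7% of all tested genes. Only COL6A3 was lower at both times, against 27.1%. The 2 times differed: 19 of 21 were higher in PT2399 at 24 h and 9 of 21 at 48 h, against 52.7% and 51% of all tested genes. The median log2 difference of the 21 was 0.41 at 24 h and -0.04 at 48 h, while that of all tested genes was 0.02 and 0.00. Of the 22 dim collagen genes, 22 were higher at 24 h and 10 at 48 h, against 78.9% and 48.5% of all genes under the limit.

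**Figure D3:**
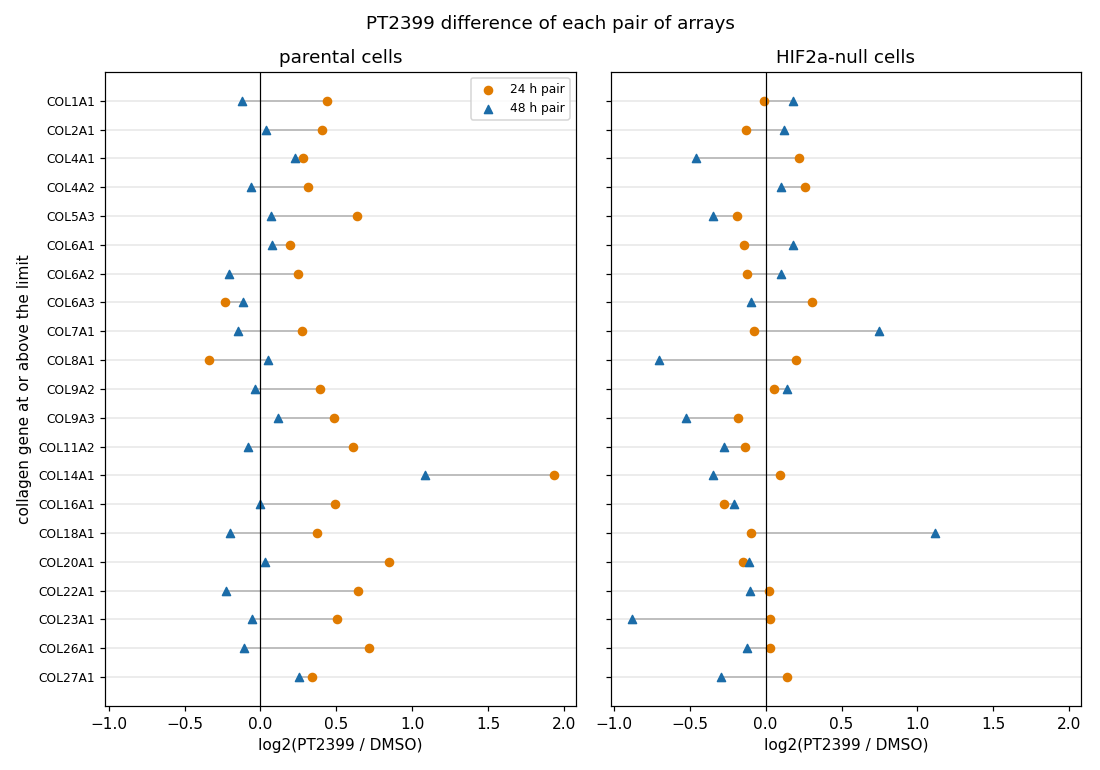
Log2 ratio of PT2399 to DMSO for the 21 tested collagen genes in parental (left) and HIF2a-null cells (right), with the 24 h pair as circles, the 48 h pair as triangles and a grey line joining the pairs of a gene. In parental cells 19 of 21 circles and 9 of 21 triangles lie above 0, and COL14A1 is farthest to the right at both times.

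The parental PT2399 array at 24 h had the highest median intensity of the 8, and dimmer genes read higher on it: the lowest 3684 tested genes by mean intensity, under 238, had a median log2 difference of 0.21 at 24 h, with 67% of them higher. Of the 21 collagen genes 12 lay in that low-intensity group, and the 12 had a median of 0.56. After quantile normalization the collagen median at 24 h was 0.36, with 0.02 in the low-intensity group and -0.01 over all tested genes. Centring each array on its median shifted the 24 h difference of all tested genes from 0.02 to -0.19, and the collagen median to 0.20. Averaged over both times, 19 collagen genes were higher and 2 lower as deposited, and 16 higher and 5 lower after centring. The part of array intensity in the collagen values was not tested beyond these scalings.

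**Figure D4:**
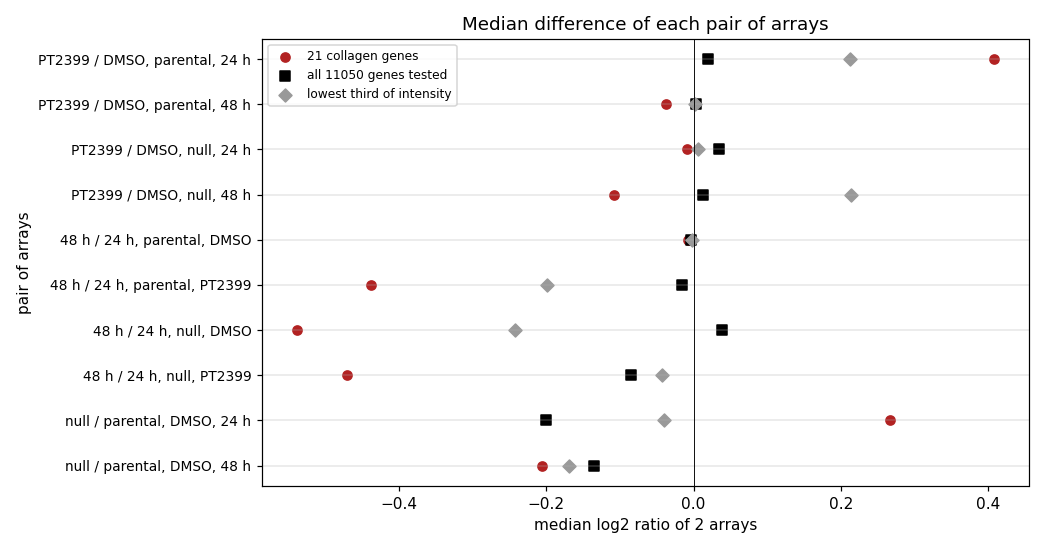
Median log2 ratio of 10 pairs of arrays for the 21 tested collagen genes (red circles), all 11050 tested genes (black squares) and the 3684 tested genes of lowest intensity (grey diamonds). The collagen median is 0.41 for PT2399 at 24 h in parental cells and between -0.54 and -0.44 for 3 of the 4 pairs that set 48 h against 24 h.

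Among the fibrillar chains, COL1A1, the main chain of type I collagen, had intensities of 126 and 132 in parental DMSO cells and 171 and 122 in parental PT2399 cells at 24 h and 48 h. In null cells it had 156 and 117 in DMSO and 155 and 133 in PT2399. The groups overlapped, and the mean log2 difference with PT2399 was 0.16 in parental cells (SD 0.39 over the pairs). COL5A3, a chain of type V collagen, had the largest mean difference among the 5 tested fibrillar chains, 0.35 (SD 0.40), of which 0.64 came at 24 h and 0.07 at 48 h.

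COL4A1 and COL4A2 encode the chains of the common type IV collagen network and are transcribed in opposite directions from neighbouring starts. RefSeq (GRCh38.p14) places the starts on either side of 126 bases at chr13:110307158-110307283, written on the strand of COL4A2 and shown because both genes share this stretch:
COL4A2 and COL4A1: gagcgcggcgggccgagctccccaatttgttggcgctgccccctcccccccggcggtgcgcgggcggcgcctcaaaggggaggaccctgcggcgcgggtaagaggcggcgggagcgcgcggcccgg
No ACGTG or GCGTG lies in these 126 bases on either strand. The longer window of 250 bases before the COL4A2 start, used below for other genes, holds 1 GCGTG over both strands. That match thus reaches beyond the stretch shown. The same window before the COL4A1 start holds neither motif. COL4A1 had 916 and 781 in parental DMSO cells and 1113 and 913 in parental PT2399 cells, and its log2 difference was 0.28 at 24 h and 0.23 at 48 h. COL4A2 had 768 and 769 in parental DMSO cells and 952 and 736 in parental PT2399 cells, a log2 difference of 0.31 and -0.06. In null cells COL4A1 had 694 and 829 in DMSO and 810 and 602 in PT2399. COL4A2 had 897 and 916 in null DMSO cells and 1075 and 980 in null PT2399 cells. Neither gene passed the test in either genotype. The other type IV pairs share the same arrangement, with 418 bases between the starts of COL4A3 and COL4A4 and 379 between those of COL4A5 and COL4A6, and all 4 were dim.

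Type VI collagen is built from the chains of COL6A1, COL6A2 and COL6A3. COL6A1 had 1157 and 1092 in parental DMSO cells and 1325 and 1152 in parental PT2399 cells, a mean log2 difference of 0.14 (SD 0.08). COL6A2 had 441 and 500.2 in parental DMSO cells and 524 and 434 in parental PT2399 cells, so its groups overlapped. COL6A3 had 1149 and 1143 in parental DMSO cells and 977 and 1054 in parental PT2399 cells. Both PT2399 arrays lay under both DMSO arrays for COL6A3, with a mean log2 difference of -0.17 (SE 0.24), which did not pass the test. The 3 chains thus had differences of both signs, each smaller than its SE.

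COL8A1 encodes a short-chain network collagen found in vessel walls and under corneal endothelium. It had 548 and 377 in parental DMSO cells and 433 and 391 in parental PT2399 cells, with a log2 difference of -0.34 at 24 h and 0.05 at 48 h. COL18A1, a basement membrane collagen whose C-terminal fragment is endostatin, had 392 and 430 in parental DMSO cells and 508 and 375 in parental PT2399 cells. Its log2 difference was 0.38 at 24 h and -0.20 at 48 h, so the times went opposite ways.

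The second comparison applied PT2399 to null cells, which the labels describe as lacking the target. COL14A1 had 262 and 317 in null DMSO cells and 279 and 249.6 in null PT2399 cells, and the groups overlapped. Its log2 difference was 0.09 at 24 h and -0.35 at 48 h, with a mean of -0.13 (SE 0.30, limma adjusted p = 0.85). Limma called no collagen gene and 0% of all tested genes, of which 481 had an unadjusted p under 0.05; no collagen gene was among them, against 1.29% higher and 3.07% lower over all. COL4A2 and COL9A2 were higher at both times (27% of all tested genes) and COL5A3, COL9A3, COL11A2, COL16A1 and COL20A1 were lower at both (19.5%). COL11A2 had 3 probe sets, and all counts use the brightest. Those not used shared their values, 177 and 104 in null DMSO cells and 156 and 123 in null PT2399 cells. They were thus higher with PT2399 at 48 h. In parental cells at 24 h they had 93.6 in DMSO and 87.0 in PT2399, where the brightest had 157 and 239. No collagen gene was 1.5-fold higher at both times, against 0.172%, or 1.5-fold lower, against 0.525%. The median log2 difference of the 21 was -0.01 at 24 h and -0.11 at 48 h.

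The array that stood apart carried the widest values in null cells. At 48 h COL18A1 had 309.9 in DMSO and 672 in PT2399, a log2 difference of 1.12. At 24 h it had 481 and 450, a difference of -0.10. COL8A1 had 71.8 and 44.1 at 48 h, a difference of -0.70 against 0.20 at 24 h, all under the limit. The SD of the log2 difference over all tested genes was 0.93 for the 48 h null pair and 0.24 for the 24 h null pair. Without the null PT2399 array at 48 h, limma called no collagen gene in null cells, and the COL14A1 and COL18A1 differences were 0.09 and -0.10. When instead a null 24 h array was left out, so that only the 48 h pair was compared, limma called COL7A1, COL8A1, COL18A1 and COL23A1, 4 of 21 (19%), against 46.5% of all tested genes.

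The difference between the genotypes in their PT2399 response was tested in the same model. For COL14A1 the parental response exceeded the null response by 1.84 at 24 h and 1.43 at 48 h, with a mean of 1.64 (SE 0.43). The unadjusted limma p was 0.0091 and the adjusted p 0.95, so the difference did not pass the test. Without the null PT2399 array at 48 h it was 1.42 (SE 0.39, limma adjusted p = 0.81). Leaving out a null 24 h array gave 1.86 (SE 0.39) and a limma adjusted p of 0.021; limma then called COL23A1 too, 2 of 21, against 31.5% of all tested genes. These values rest on the null PT2399 array at 48 h. Of the 21, 10 differed in the higher direction at both times, against 18.4% of all tested genes. Averaged over both times 17 were higher and 4 lower as deposited, and 15 and 6 after centring each array on its median. The collagen median was 0.25, against 0.04 over all tested genes. With a filter at percentile 60, 9 collagen genes were left. Their median was 0.03, against 0.04 over all genes that passed it, with 5 higher and 4 lower. COL9A3, a FACIT chain of cartilage, and COL14A1 exceeded 1.5-fold in the higher direction at both times, against 1.81% of all tested genes. For COL9A3 the mean difference was 0.65 (SD 0.02, SE 0.35, limma adjusted p = 0.95), which did not pass the test. The small SD came from unlike parts. The 24 h pairs gave 0.48 (parental) and -0.19 (null), and the 48 h pairs gave 0.12 and -0.52. The last value comes from the array that stood apart. COL14A1 was the only collagen gene with an unadjusted p under 0.05 in the higher direction (0.896%), and none had one in the lower direction (0.842%).

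Time in culture was compared within each genotype, at 48 h against 24 h. In null cells 13 of 21 collagen genes were lower at 48 h in both treatments, against 21.7% of all tested genes, and none was higher in both (19.1%). Of the 21, 8 had an unadjusted limma p under 0.05 in the lower direction, against 5.52% of all tested genes: COL5A3, COL9A3, COL11A2, COL16A1, COL20A1, COL22A1, COL23A1 and COL27A1. Their mean log2 differences ran from -0.99 to -0.65, and 6 of them were at least 1.5-fold lower in both treatments, against 3.58% of all tested genes. None had one in the higher direction (2.43%). After adjustment limma called none of them and 0% of all tested genes. The number of collagen genes with an unadjusted limma p under 0.05 depended on the setting. It was 4 after centring each array on its median and 6 after quantile normalization. With each genotype fitted alone it was 2, and with array weights 0. COL5A3 had 271 at 24 h and 145 at 48 h in null DMSO cells, and 238 and 113 in null PT2399 cells. COL16A1, a FACIT collagen, had 248 and 136 in null DMSO cells and 205 and 118 in null PT2399 cells. For both genes the 48 h arrays lay under the 24 h arrays in each treatment. On the probe sets of COL11A2 that were not used, the null PT2399 values were 156 and 123, a fall of less than 1.5-fold.

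Without either null DMSO array, which leaves only the pair with the null PT2399 array at 48 h, limma called COL5A3, COL8A1, COL9A3, COL23A1 and COL27A1, 5 of 21 (23.8%), against 32.2% of all tested genes. COL8A1 was under the limit on every null array and was tested only through its parental values. Without that PT2399 array it called none. The null DMSO pair alone gave a collagen median of -0.54, with 16 of 21 lower, while all tested genes had a median of 0.04 and the low-intensity group -0.24. The null PT2399 pair gave -0.47. The null DMSO array at 48 h had the lowest median intensity of the 8, 99.4, against 121 at 24 h. After quantile normalization the collagen medians were -0.46 and -0.35 and those of the low-intensity group -0.05 and 0.08. After centring, the mean over both pairs was lower for 15 and higher for 6 collagen genes, against 19 and 2 as deposited. The part of array intensity in these values was not tested further. In parental cells 11 of 21 collagen genes were lower at 48 h in both treatments (30% of all tested genes). The median of the 21 was -0.01 in DMSO and -0.44 in PT2399. The PT2399 pair holds the parental PT2399 array at 24 h, which had the highest median intensity, and the low-intensity group had -0.20 in that pair. In DMSO the differences of the 11 ran from -0.54 (COL8A1) to -0.0021 (COL5A3). None of the 21 had an unadjusted limma p under 0.05 (0.507% lower and 0.326% higher over all).

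Null and parental cells were compared in DMSO as values only. The parental DMSO arrays of this comparison are also those of the PT2399 comparison in parental cells, so both sets of values move with the same arrays. The fibroblast marker sum, given above, was lower in null arrays, with every marker under the limit. COL8A1 was lower in null cells, with 67.0 and 71.8 against 548 and 377, a log2 difference of -3.03 at 24 h and -2.39 at 48 h. Over all 8 arrays its null values (44.1 to 77.0) lay under every parental value (377 to 548), and the geometric mean was 6.80 times higher in parental cells. The null values are under the limit, so the ratio rests on dim readings. COL14A1 was higher in null cells, by 1.30 at 24 h and 1.80 at 48 h, and beside these stand its parental PT2399 differences of 1.94 and 1.08. It was the only collagen gene 2-fold higher at both times, against 3.11% of all tested genes, and COL8A1 the only tested one 2-fold lower, against 4.68%.

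**Figure D5:**
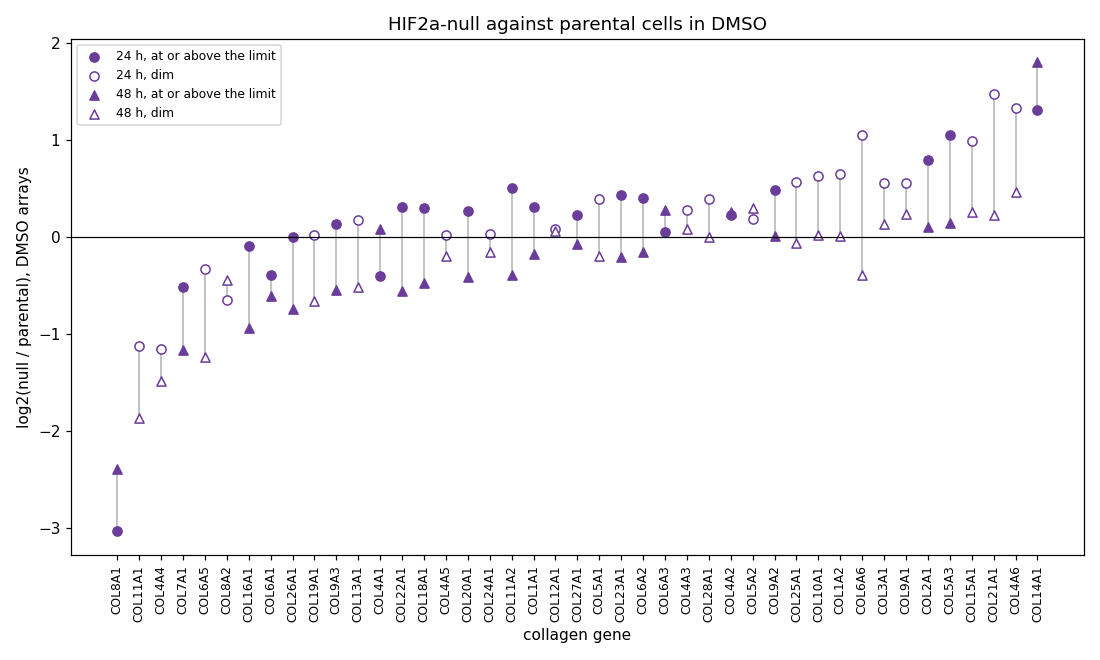
Log2 ratio of HIF2a-null to parental cells in DMSO for the 43 collagen genes, ordered by mean, with circles for 24 h, triangles for 48 h, open symbols for dim genes and grey lines joining the times. COL8A1 lies at -3.03 and -2.39, and COL14A1 at 1.30 and 1.80.

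Among the tested genes COL6A1, COL7A1, COL8A1 and COL16A1 had all 4 null arrays under all 4 parental arrays, against 22% of all tested genes. COL7A1, which forms the anchoring fibrils that tie basement membrane to stroma, had 377 to 496 in parental and 186 to 311 in null arrays. COL16A1 had 260.2 to 370 in parental and 118 to 248 in null arrays. COL6A1 had 1092 to 1325 in parental and 715 to 879 in null arrays. COL6A3 was the only tested collagen gene with all null arrays above the parental ones, 1185 to 1466 against 977 to 1149, where 8.83% of tested genes were. The partner chains of type VI collagen thus lay on opposite sides, and COL6A2 overlapped, with 434 to 524 in parental and 448 to 580.0 in null arrays. COL4A2 was higher in null DMSO cells by 0.23 and 0.25, and COL4A1 differed by -0.40 and 0.09. COL1A1 differed by 0.31 and -0.17, and COL18A1 by 0.30 and -0.47, so their times went opposite ways.

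Over all 43 genes COL4A4, COL6A5 and COL11A1 also had their null arrays under the parental ones, 7 in all, against 19.8% of named genes. COL15A1 joined COL6A3 in having all null arrays above the parental ones, against 8.87%. Among the 21 tested and among all 43, collagen genes separated in either direction at a lower share than all genes did. COL11A1, a fibrillar chain of cartilage, had 133 to 169 in parental and 40.6 to 61.1 in null arrays, all of the latter under the limit. COL4A4, a chain of the glomerular basement membrane, had 96.6 to 154 in parental and 39.8 to 58.7 in null arrays. COL15A1, a multiplexin of basement membrane zones, had 67.1 to 85.3 in parental and 87.5 to 156 in null arrays. COL4A4, COL8A1 and COL11A1 were 2-fold lower in null cells at both times, against 4.62% of the named genes. COL14A1 was the only one of the 43 that was 2-fold higher at both times, against 3.39%. The median log2 difference of all tested genes, null against parental, was -0.20 at 24 h and -0.13 at 48 h. The collagen median was 0.27 and -0.21; averaged over times 11 of the 21 were higher and 10 lower, and 15 and 6 after quantile normalization.

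The bases upstream of 5 of the genes that separated the genotypes are shown so that the letters ACGTG and GCGTG, which HIF recognises, can be looked for. The genes were chosen after their values were seen. Each window holds the 250 bases before the RefSeq start (GRCh38.p14), read on the gene's own strand, with any ACGTG or GCGTG and their reverse complements in capitals:
COL4A4 (chr2:227164206-227164455, minus strand): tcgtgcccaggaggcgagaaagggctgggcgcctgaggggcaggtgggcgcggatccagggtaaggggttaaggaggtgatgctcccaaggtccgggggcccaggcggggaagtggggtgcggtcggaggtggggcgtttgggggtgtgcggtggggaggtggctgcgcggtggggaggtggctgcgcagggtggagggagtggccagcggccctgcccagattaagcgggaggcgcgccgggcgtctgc
COL7A1 (chr3:48595330-48595579, minus strand): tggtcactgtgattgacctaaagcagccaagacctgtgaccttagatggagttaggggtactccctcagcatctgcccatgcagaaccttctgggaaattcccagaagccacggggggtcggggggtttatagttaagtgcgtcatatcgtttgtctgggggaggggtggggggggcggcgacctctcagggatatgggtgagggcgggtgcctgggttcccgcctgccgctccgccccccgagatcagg
COL11A1 (chr1:103108523-103108772, minus strand): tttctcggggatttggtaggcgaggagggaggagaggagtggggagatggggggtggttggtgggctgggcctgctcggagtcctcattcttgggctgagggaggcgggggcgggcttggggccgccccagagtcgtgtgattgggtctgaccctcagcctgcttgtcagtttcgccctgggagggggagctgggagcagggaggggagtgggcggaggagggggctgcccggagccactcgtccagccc
COL16A1 (chr1:31704018-31704267, minus strand): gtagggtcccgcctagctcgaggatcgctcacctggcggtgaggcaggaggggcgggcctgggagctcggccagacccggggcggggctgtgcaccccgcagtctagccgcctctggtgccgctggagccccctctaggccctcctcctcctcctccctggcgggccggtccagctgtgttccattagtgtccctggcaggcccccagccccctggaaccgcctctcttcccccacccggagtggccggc
COL15A1 (chr9:98943657-98943906, plus strand): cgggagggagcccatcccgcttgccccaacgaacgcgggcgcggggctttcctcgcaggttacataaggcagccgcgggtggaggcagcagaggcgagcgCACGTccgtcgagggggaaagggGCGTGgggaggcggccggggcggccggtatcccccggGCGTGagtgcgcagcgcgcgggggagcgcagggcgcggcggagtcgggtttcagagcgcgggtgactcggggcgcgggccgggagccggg
COL15A1 holds 1 ACGTG and 2 GCGTG over both strands, which can overlap, and the other 4 windows hold neither. COL6A3, which like COL15A1 had all null arrays above the parental ones, has a window that is not shown and holds neither. RefSeq windows were matched for 31 of the 43 collagen genes. Either motif was in 13 of 31, and in 4 of the 13 that were tested, against 58.1% of 8888 tested genes and 43.1% of all 27305 windows. A match of letters is no binding site, and the absence of one speaks only of these 250 bases.

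The genes around the collagens were read from lists of matrix genes. Of 24 tested genes for collagen maturation, 12 were higher and 6 lower in parental PT2399 cells at both times, against 30.7% and 27.1% of all tested genes, with a median log2 difference of 0.06, and limma called none. P4HA1, which hydroxylates prolines of the chains, had 1236 and 950.2 in DMSO and 735 and 738 in PT2399, a mean of -0.56 (SE 0.36). In null cells its log2 difference with PT2399 was -0.08 at 24 h and -1.38 at 48 h, the latter on the array that stood apart. LOXL2, a crosslinking enzyme, had -0.38, SERPINH1, the collagen chaperone HSP47, had 0.35, and ADAMTS2, which removes the N-propeptide, had 0.40. Of 7 tested genes for collagen cleavage 5 were higher at both times and 0 lower, beside the same 30.7% and 27.1%. MMP7, a matrix metalloproteinase, had 196 and 55.9 in DMSO and 873 and 273 in PT2399, a mean of 2.22 (SE 0.26, limma adjusted p = 0.46). Limma called MMP7 with array weights (adjusted p = 0.00026) and on parental arrays alone (0.029). MMP13, the collagenase 3, had a mean of 0.75, MMP1 0.21 and MMP14 0.20, and none passed the test.

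All 3 tested collagen receptor genes had the same sign at both times: GP6 and DDR1 with means of 0.48 and 0.25, and the integrin subunit ITGB1 with -0.03. Of 14 other tested matrix genes 9 were higher and 1 lower at both times, where all tested genes had 30.7% and 27.1%. NID2, which links laminin to type IV collagen, had 316 and 255 in DMSO and 587 and 370 in PT2399, a mean of 0.71 (SE 0.24). ELN, which encodes elastin, had 0.40, FN1, fibronectin, 0.33 and LAMB3, a laminin chain, -0.39. Of 12 regulators 3 were higher and 4 lower at both times (30.7% and 27.1% over all), among them TGFB1 with -0.38, its inhibitor SMAD7 with -0.31, the target CCN2 with 0.20 and the receptor TGFBR2 with 0.20. No gene of these lists passed the test in the unweighted model over all 8 arrays.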

How the data were processed

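The deposited values are linear Affymetrix probe set intensities, 1 per probe set and array; per the labels' protocols, Trizol RNA was labelled with a whole-transcript kit. No source used here gives the background correction, summarisation or scaling. Of 33252 probe sets, 19460 had 1 gene, 1754 several and 12038 none; 19429 were matched by Entrez identifier to the RefSeq table. Where a gene had several probe sets, the brightest by mean log2 was taken; COL17A1 was not analysed here. Log2 of the deposited intensities was fitted with limma 3.58.1 in R 4.3.3: genotype, time and PT2399 terms, 8 arrays, 2 residual degrees of freedom, Benjamini-Hochberg over 11050 genes, threshold 0.05. P-values measure only the spread between pairs of arrays, and the small number of arrays limits the precision. SD is over the 2 pairs. The code of the fit was also run on simulated data, with independent noise of the same spread on every array. That setting holds no array that stands apart, so it does not speak to the calls made here.

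Array values, or their ranges by genotype, are given for tested genes 1.5-fold different in the same direction at both times (PT2399 in either genotype, or genotype in DMSO). The same holds for fixed chains of types I, III, IV, V, VI, XIV and XVIII where these were tested. Other genes named with values were chosen after the values were seen. In each companion list up to 4 genes were named, those with the largest absolute parental difference among genes of the same direction at both times. The members and lists were chosen with earlier results of these data known. Alternatives covered scaling, pseudocount, filter, probe sets, model and each array left out.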

Additional observations from a re-analysis of the deposited data

How the results depend on the processing

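With 1 array per group, each array left out removes its pair, and the genes tested stayed those of the 8-array filter. DMSO and PT2399 arrays were paired by time through the time term, and the fit without that term is among the alternatives; the labels give no replicate numbers to pair by. Few arrays, the array that stood apart and, for dim genes, signal near background limit these values.

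Centring each array gave -0.0788 for COL6A2 and -0.0125 for COL18A1 with PT2399 in parental cells, -0.0082 for COL6A1 in null cells, and a collagen median of -0.35 for time in null cells. Quantile normalization gave 0.0327 for COL6A2 in null cells, 0.0027 for COL4A1 and 0.13 for COL18A1 between genotypes, and -0.34 for that time median. It was -0.41 with a pseudocount of 32 and -0.13 with a filter at percentile 60. That filter left 9 collagen genes, with 0 of them 1.5-fold higher in parental cells and 0 higher and 0 lower between genotypes. With no filter 1 gene was 1.5-fold lower with PT2399 in null cells and 3 between genotypes. Array weights called 1 gene in parental cells, COL14A1, and 76 of all tested genes. The cause of these shifts was not tested, except that the filters change which genes are counted.

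With each array left out in turn, collagen genes called by limma numbered 0 with PT2399 in parental cells, 0 to 4 in null cells (where all tested genes reached 46.5%), 0 to 2 for the difference between genotypes (COL14A1 and COL23A1; 31.5%), 0 for time in parental cells and 0 to 5 for time in null cells (COL5A3, COL8A1, COL9A3, COL23A1 and COL27A1, without either null DMSO array; 32.2%). The collagen medians ran from -0.04 to 0.41 and -0.11 to -0.0094 with PT2399 in parental and null cells, 0.06 to 0.43 for the difference, and -0.44 to -0.0071 and -0.54 to -0.47 for time. In parental cells the sign turned for COL1A1 (-0.12 to 0.44), COL4A2 (-0.0629 to 0.31), COL6A2 (-0.20 to 0.25), COL8A1 (-0.34 to 0.0529) and COL18A1 (-0.20 to 0.38). In null cells it turned for COL1A1 (-0.0094 to 0.18), COL4A1 (-0.46 to 0.22), COL6A1 (-0.14 to 0.18), COL6A2 (-0.12 to 0.10), COL6A3 (-0.0934 to 0.31), COL8A1 (-0.70 to 0.20), COL14A1 (-0.35 to 0.0924) and COL18A1 (-0.10 to 1.12). For the difference between genotypes it turned for COL8A1 (-0.34 to 0.56).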
